A study of Mus musculus with 15 samples.

Results

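The comparison was between mouse mesenchymal stem cells of the bone marrow (BM-MSCs) that shared a culture with an IL-12 gel carrying the nanoclay Laponite (Gel/Laponite@IL-12) and those with the IL-12 gel alone (Gel/IL-12). Its members were the 6 RNA-seq libraries that the labels placed in these groups, 3 per group, out of 15 in the series. The cells of every group were commercial primary BM-MSCs of the C57BL/6 strain, used at passages 3 to 5, irradiated with 5 Gy and then kept with the material for 48 h. The gel in all gel groups was alginate grafted with the adhesion peptide RGD (RGD-Alg), so that Gel/IL-12 was RGD-Alg/IL-12 and Gel/Laponite@IL-12 was RGD-Alg/Laponite@IL-12. The 3 libraries of Gel (RGD-Alg) and the 3 of Gel/Laponite (RGD-Alg/Laponite) gave the same contrast without IL-12. The irradiated control without gel (IR-Con) was left out of the fit. The sources used here did not say whether the libraries of a group came from separate cultures, so the p-values measure the spread between these libraries, which may be technical. No group had Laponite or IL-12 without gel, and a change in IL-12 release with the clay cannot be told apart from an effect of the clay itself.

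Laponite is a synthetic layered silicate whose charged platelets bind proteins and slow their release from a gel. IL-12 is a cytokine of the innate immune response that acts through the receptor chains Il12rb1 and Il12rb2 and STAT4, and it is best known for raising interferon-gamma in T and NK cells. Interferons in turn switch on a set of antiviral genes (Ifit, Oas, Mx, Isg15, Rsad2) through a complex that holds STAT2 and IRF9 and binds an interferon-stimulated response element in the promoters. Bone morphogenetic proteins (BMPs) signal through Smad1 and Smad5 to the Id genes, inhibitors of helix-loop-helix transcription factors, and in marrow stroma this pathway is known for its part in bone formation.

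The promoters of 4 interferon-induced genes are shown because these genes rose together in the comparison described here. Each line gives the 200 bases before the transcription start from RefSeq (GRCm38.p6), 5' to 3' on the strand of the gene, and capitals mark each match on either strand to GAAA, any 2 bases and GAAA again, the core of the interferon-stimulated response element.
Ifit1, chr19:34640689-34640888, plus strand: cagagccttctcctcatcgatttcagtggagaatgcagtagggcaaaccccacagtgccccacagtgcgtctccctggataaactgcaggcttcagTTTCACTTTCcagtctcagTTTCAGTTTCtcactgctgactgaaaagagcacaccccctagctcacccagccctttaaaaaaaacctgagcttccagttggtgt
Ifit3, chr19:34583329-34583528, plus strand: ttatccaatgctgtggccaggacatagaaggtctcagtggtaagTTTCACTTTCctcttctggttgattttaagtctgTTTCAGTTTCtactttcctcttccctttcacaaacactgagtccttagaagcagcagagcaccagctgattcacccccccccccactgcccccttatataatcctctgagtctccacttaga
Isg15, chr4:156200819-156201018, minus strand: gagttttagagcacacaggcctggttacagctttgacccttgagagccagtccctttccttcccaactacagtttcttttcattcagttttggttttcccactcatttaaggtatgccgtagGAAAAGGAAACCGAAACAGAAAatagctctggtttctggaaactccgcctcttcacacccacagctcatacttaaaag
Rsad2, chr12:26456453-26456652, minus strand: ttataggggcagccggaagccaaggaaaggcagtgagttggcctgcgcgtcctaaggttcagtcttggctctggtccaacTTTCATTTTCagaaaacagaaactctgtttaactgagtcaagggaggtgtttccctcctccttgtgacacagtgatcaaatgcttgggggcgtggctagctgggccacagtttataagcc
The matches began 104 and 85 bases before the start of Ifit1, 156 and 122 bases before that of Ifit3 and 120 bases before that of Rsad2. Those of Isg15, at 78, 72 and 66 bases, overlapped each other. Over the 250 bases before the start, the motif was found in 10 of the 20 genes of the interferon list that had a RefSeq window and in 3.23% of the 10520 tested genes that had one. The 4 genes shown all held it and do not stand for the list. Ifit2, Ddx58, Irf7 and Oasl2, which rose, were among those without it. B2m, which did not pass, was among those with it. A link of the motif to the rise was not tested. A match of letters is a description of the window and not of a bound site.

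Total counts were 15147272 to 17818982 in the 12 gel libraries, and 15188 of 54532 genes passed the filter on low counts. The biological coefficient of variation (edgeR common dispersion) was 3.52% to 4.06% in each gel group, and PC1, with 12.7% of the variance, separated the 6 libraries with Laponite from the 6 without. The 10 mesenchymal markers were detected at 3.75 to 1148 CPM (counts per 1000000, with library sizes scaled by the trimmed mean of M-values, TMM) in all 6 libraries. Of 7 macrophage markers 4 were under 1 CPM in all 6 libraries, and 2 of those 4 were at 0. The others were Cd68 at 8.40 to 11.4 CPM, Csf1r at 2.57 to 3.90 CPM and Lyz2 at 0.777 to 1.23 CPM. The 7 markers of other blood cells were all under 1 CPM and 3 of them at 0. Wider marker lists were summed over the genes that passed the filter. Across the 6 libraries 5 macrophage markers took 13.8 to 17.3 CPM and 8 endothelial markers 14.5 to 17.8 CPM. The 16 mesenchymal markers took 3954 to 4076 CPM. The chain Il12rb1 was read at 2.36 to 4.40 CPM and Il12rb2 at no more than 0.66 CPM in the gel libraries.

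Adding Laponite to the IL-12 gel changed 659 genes at an adjusted p under 0.05 (edgeR quasi-likelihood test), which was 4.34% of those tested. Of these DEGs, 327 rose (2.15% of tested genes) and 332 fell (2.19%). The median size of the log2 fold change among DEGs was 0.18, and 92 of the higher and 90 of the lower DEGs changed by at least 1.2-fold, 15 and 20 by at least 1.5-fold. The 3 libraries of Gel/Laponite@IL-12 did not overlap those of Gel/IL-12 in 643 of the 659 DEGs, against 18.8% of all tested genes. The median log2 fold change of all tested genes was close to 0 (-0.004). In bulk RNA, fewer cells of a type and less RNA per cell cannot be told apart.

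In the gel without IL-12, Laponite changed 819 genes (5.39%), 467 upward (3.07%) and 352 downward (2.32%). The contrasts share no library, only the spread of the joint fit. Of the 659 DEGs with IL-12, 398 (60.4%) pointed the same way without IL-12, against 50.3% of all tested genes, and 134 were also called there in the same direction, which was 20.3% of the DEGs with IL-12 and 16.4% of those without. Another 70 were called in the opposite direction, 61 of them lower with IL-12 and higher without. The difference of the Laponite effects, tested in the same fit, passed in 562 genes (3.7%), 214 with a more positive effect with IL-12 (1.41%) and 348 with a more negative one (2.29%). It passed in 236 of the 659 DEGs. In the plot of the DEGs by both effects, interferon genes lay along the vertical axis, BMP genes other than Bmp4 in the quadrant that was lower in both settings, and ribosomal protein genes in the quadrant that was higher without and lower with IL-12.

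The number of DEGs turned on the libraries that set the spread. The coefficient of variation of IR-Con was 16.9%. With those 3 libraries in the fit (all 15) edgeR called 47 DEGs with IL-12, 51 without and 0 for the difference. At an unadjusted p under 0.05 that fit gave 744, 935 and 631 genes in the same order. From the 6 libraries of the comparison alone the DEGs with IL-12 were 669. Without Gel replicate 3 the DEGs of Laponite without IL-12 were 522. In the fit of all 15 libraries 20 of the 83 named genes called with IL-12 passed, among them Id1, Id2, Id3, Atoh8, Bmp4, Alpl, Steap4, C3, Tgfbr2, Ctgf and Cyp1a1.

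**Figure D1:**
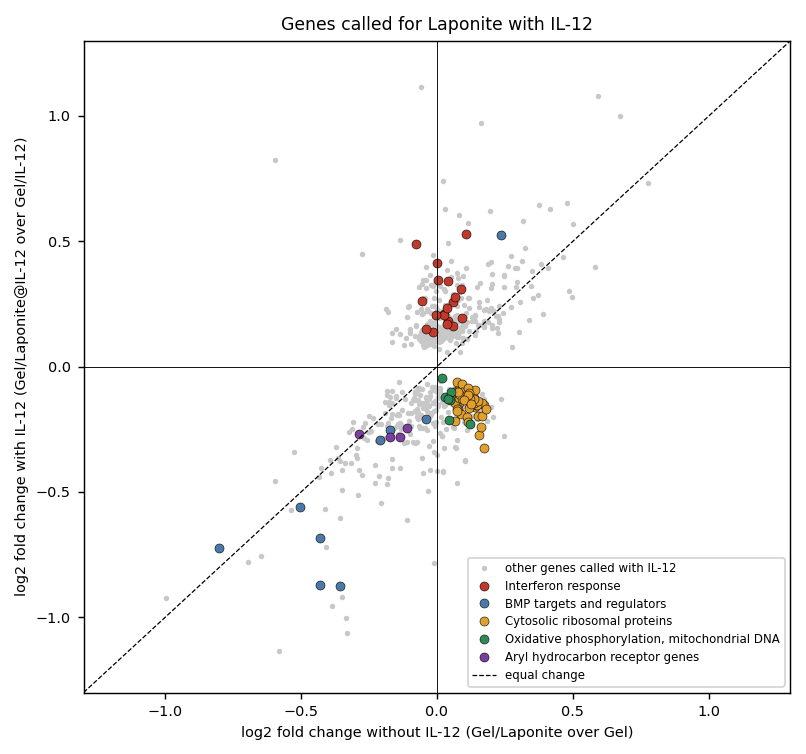
Log2 fold change by Laponite with IL-12 (vertical axis, Gel/Laponite@IL-12 over Gel/IL-12) against that without IL-12 (horizontal axis, Gel/Laponite over Gel), 1 point per gene called with IL-12. Of 659 genes 653 are drawn and 6 lie outside the axis limit of 1.3; colours mark members of 5 gene lists and the dashed line marks equal change.

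Genes that respond to BMP signalling were among those that fell most. The inhibitors of differentiation Id1, Id2 and Id3 were 45.4%, 45.5% and 37.8% lower in Gel/Laponite@IL-12 than in Gel/IL-12, and Atoh8, a helix-loop-helix factor induced by BMPs, was 39.4% lower. Of the 26 tested BMP targets and regulators 8 fell, 1 rose and the median log2 fold change was -0.09, against -0.004 for all genes. The median was -0.18 without Gel/IL-12 replicate 2, -0.17 and -0.06 without Gel/Laponite@IL-12 replicates 3 and 2, and -0.21 at a mean of at least 10 CPM. Without IL-12 6 fell, and the median of -0.03 was 0.01 without Gel/Laponite replicate 1, -0.02 and -0.10 without Gel replicates 1 and 3, and -0.10 without Gel/Laponite replicate 2. With IR-Con in the fit 1 rose and 5 fell with IL-12. The genes that fell include antagonists of the pathway (Grem1, Smad6, Smad7) as well as its targets, and the gene that rose was the ligand Bmp4. On GRCm38 (GENCODE M21) the genes lie at chr2:152736251-152737410 (Id1), chr12:25093799-25097140 (Id2), chr4:136143497-136145755 (Id3), chr6:72206177-72235577 (Atoh8), chr2:113746164-113758646 (Grem1) and chr14:46383520-46390669 (Bmp4).

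Id1 was read at 27.9, 26.5 and 27 CPM in Gel/IL-12 and at 14.7, 14.4 and 15.3 CPM in Gel/Laponite@IL-12 (log2 fold change -0.87, SE 0.0797, adjusted p = 3.77e-15). Without IL-12 the Gel libraries held 26.5, 25.9 and 23.9 CPM and those of Gel/Laponite 18.8, 18.5 and 19.5 CPM. The Laponite libraries were below the others in both settings and the lowest were those with IL-12. The log2 change was -0.43 without IL-12, and the difference of -0.44 (SE 0.112) passed the test (adjusted p = 0.00769). Id2 went from 33.9, 34.1 and 34.2 CPM to 20.3, 18.7 and 16.8 CPM (-0.87, SE 0.0725, adjusted p = 4.38e-17), and its difference from the effect without IL-12 was -0.52 (adjusted p = 0.000204). For Id3 the libraries held 121, 120.1 and 118 CPM in Gel/IL-12 and 73.8, 75.9 and 74 CPM in Gel/Laponite@IL-12 (-0.68, SE 0.0381, adjusted p = 3.61e-27). Its log2 change was -0.43 without IL-12, and the difference of -0.26 was called (adjusted p = 0.000738). The groups did not overlap for any of the Id genes, which was a condition of a rule that named them. Atoh8 was read at 14.2, 17.6 and 17.5 CPM and 9.81, 9.71 and 10.4 CPM (-0.72, adjusted p = 7.6e-08). Here the change without IL-12 was -0.80, and the difference of 0.08 did not pass (SE 0.144, adjusted p = 0.873).

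Among the ligands and antagonists, Bmp4 rose from 14, 13.7 and 15.5 CPM in Gel/IL-12 to 21.8, 20.8 and 19.6 CPM in Gel/Laponite@IL-12 (log2 fold change 0.52, adjusted p = 6.78e-06). Its change without IL-12 was 0.23 and was not called (adjusted p = 0.112), and neither was the difference (0.29, adjusted p = 0.229). Gremlin-1 (Grem1), a secreted BMP antagonist, fell from 1812, 1812 and 1821 CPM to 1538, 1529 and 1499.7 CPM (-0.25, adjusted p = 6.13e-20). All 3 libraries with Laponite lay outside the range of those without for Bmp4 and Grem1. For Bmp4 this was a condition of a rule that named it. The inhibitory Smads changed less, with -0.21 for Smad6 (adjusted p = 0.0361) and -0.29 for Smad7 (adjusted p = 0.00346). The call of Smad6 was lost with DESeq2 and without Gel/IL-12 replicate 2 or 3 or without Gel/Laponite@IL-12 replicate 1, 2 or 3 (adjusted p 0.0559 to 0.201). That of Smad7 was lost without Gel/IL-12 replicate 3 (-0.21, adjusted p = 0.148) and without Gel/Laponite@IL-12 replicate 3 (-0.26, adjusted p = 0.0551). The receptors Bmpr1a (0.00, adjusted p = 0.98) and Bmpr2 (0.03, 0.844) and the signal transducers Smad1 (0.00, 0.988) and Smad5 (0.04, 0.689) did not pass the test.

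Alpl, the tissue-nonspecific alkaline phosphatase of the osteoblast lineage, was read at 20.8, 18.7 and 18.5 CPM in Gel/IL-12 and 11.2, 11.4 and 12.6 CPM in Gel/Laponite@IL-12 (log2 fold change -0.72, SE 0.0943, adjusted p = 7.85e-09), with a log2 change of -0.41 without IL-12 (adjusted p = 0.00193). Every Laponite library was lower than every library without the clay. Of the 15 tested osteogenic genes 6 fell (median -0.08), and 1, Alpl, with IR-Con in the fit. They were Alpl, the RANK ligand Tnfsf11 (-0.78, adjusted p = 0.0045), Col1a1 and Col1a2, and the matrix proteins Ogn (-0.09, 0.00174) and Mgp (-0.13, 0.00247). The call of Tnfsf11 was lost without Gel/IL-12 replicate 1 or without Gel/Laponite@IL-12 replicate 2 (adjusted p 0.0536 to 0.0539), that of Ogn without Gel/IL-12 replicate 1 or without Gel/Laponite@IL-12 replicate 3 (adjusted p 0.0513 to 0.0585) and that of Mgp without Gel/Laponite@IL-12 replicate 1 (adjusted p 0.114). Runx2, the transcription factor of early osteoblasts, was read at 68.8, 71.6 and 71.1 CPM and 65.5, 66.2 and 68.2 CPM and did not pass (-0.08, adjusted p = 0.422).

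**Figure D2:**
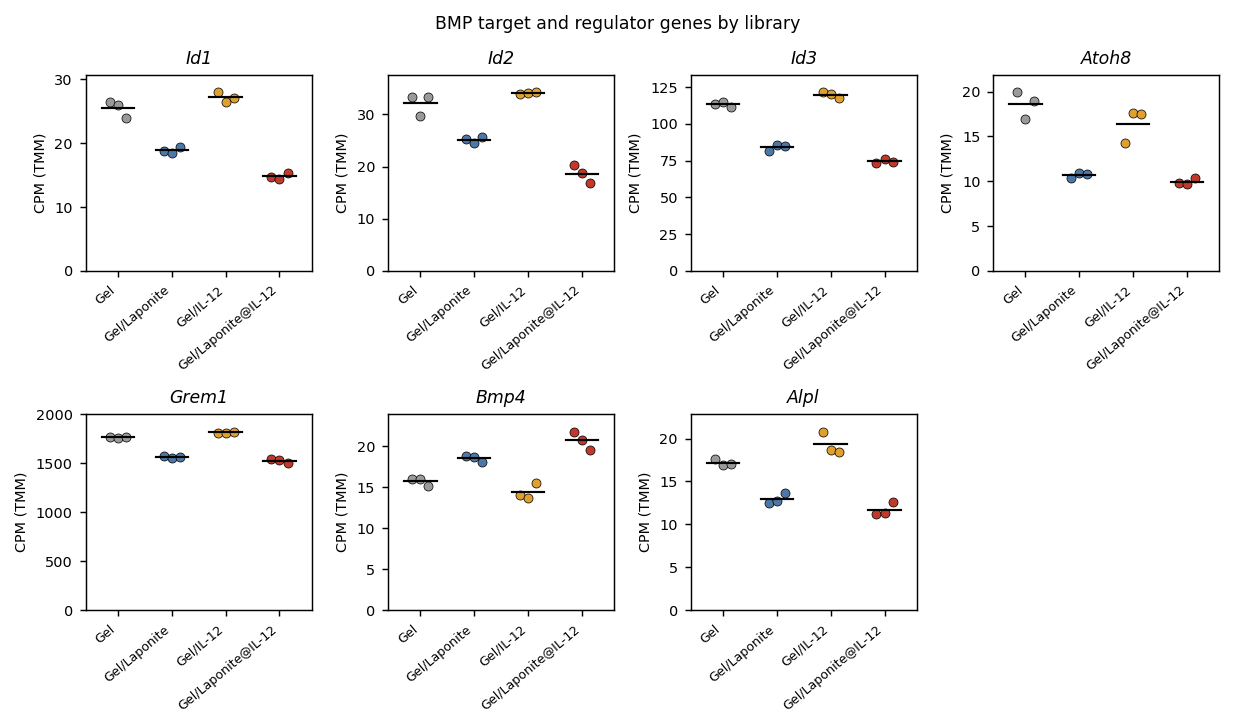
CPM of 7 BMP-related genes in the 12 gel libraries, 1 point per library and a line at each group mean (n = 3), on linear axes from 0. Id1, Id2, Id3, Atoh8, Grem1 and Alpl are lower in both Laponite groups than in the matching gels, and Bmp4 is higher.

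Interferon-induced genes rose when Laponite was added to the IL-12 gel. Of the 25 genes of the list 19 rose and 6 did not pass, with a median log2 fold change of 0.21. Without IL-12 2 of them rose and the median was 0.04 (0.02 without Gel/Laponite replicate 2), and the difference of the effects was called more positive with IL-12 in 12 and more negative in 1, B2m. With IR-Con in the fit the median stayed at 0.21 but edgeR called 0 of the 25 (13 at an unadjusted p under 0.05). Among the DEGs were the tetratricopeptide proteins Ifit1, Ifit2 and Ifit3, the oligoadenylate synthetases Oas1a, Oas2 and Oasl2, the GTPases Mx1 and Mx2, the ubiquitin-like modifier Isg15 and its protease Usp18, the RNA sensor Ddx58, and the transcription factors Irf7 and Stat2.

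Ifit1 was read at 372, 376 and 359 CPM in Gel/IL-12 and at 438, 449 and 439 CPM in Gel/Laponite@IL-12 (log2 fold change 0.26, SE 0.0256, adjusted p = 6.44e-14). Gel libraries held 406, 393 and 391 CPM and Gel/Laponite libraries 385, 381 and 380.1 CPM, where the effect was -0.05 (adjusted p = 0.244). The Gel/Laponite@IL-12 libraries were thus the highest and the Gel/IL-12 libraries the lowest of the gel groups, and the difference of the effects was 0.32 (SE 0.0362, adjusted p = 1.82e-10). Ifit3 gave 216, 225 and 219 CPM in Gel/IL-12 and 276, 274 and 288 CPM in Gel/Laponite@IL-12 (0.35, adjusted p = 5.84e-17), and 0.00 without IL-12. Ifit3 and its neighbour Ifit3b (0.42) are near-identical copies, with 48.8% and 55% of their 50-base windows unique in the transcriptome, and their values are uncertain to that extent. Ifit2 rose by 0.31 (adjusted p = 4.82e-14), with a difference of 0.22 (adjusted p = 0.000136).

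Rsad2 (viperin, an antiviral enzyme) was read at 77.7, 77.1 and 81.9 CPM in Gel/IL-12 and 108, 101 and 106 CPM in Gel/Laponite@IL-12 (log2 fold change 0.41, SE 0.0402, adjusted p = 7.39e-14), and its change without IL-12 was 0.00. The dynamin-like GTPase Mx1 went from 30.5, 31.2 and 30.1 CPM to 44.6, 43.5 and 41 CPM (0.49, adjusted p = 7.61e-10), and the difference of its Laponite effects was 0.57 (SE 0.0842, adjusted p = 4.87e-07). Non-overlap of the groups was a condition of a rule that named Rsad2 and Mx1. Oas2, which makes the second messenger that activates RNase L, went from 14, 15.5 and 13.6 CPM to 21.6, 20.4 and 20.3 CPM (0.53, adjusted p = 5.86e-06). Its difference of 0.42 (adjusted p = 0.0325) was lost when Gel replicate 1, Gel/IL-12 replicate 1 or 3, Gel/Laponite replicate 1 or Gel/Laponite@IL-12 replicate 1 was left out (0.36 to 0.41, adjusted p 0.0845 to 0.126). Isg15 rose less, from 67.9, 69.6 and 67.9 CPM to 77.1, 80.9 and 78.9 CPM (0.21, adjusted p = 0.000471), and its difference of 0.18 was not called (adjusted p = 0.0857). Cxcl10, the interferon-induced chemokine that draws CXCR3-bearing T cells, rose from 45.5, 45.7 and 43.5 CPM to 55.3, 58 and 60.3 CPM (0.37, adjusted p = 8.94e-08, difference 0.39).

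Outside the list, the giant E3 ligase Rnf213 rose from 399, 407 and 414 CPM in Gel/IL-12 to 517, 509 and 496 CPM in Gel/Laponite@IL-12 (log2 fold change 0.32, adjusted p = 3.91e-13), and the difference from its effect without IL-12 was 0.38 (adjusted p = 2.74e-10). F830016B08Rik rose by 0.61 (adjusted p = 2.18e-07), with a difference of 0.52 (adjusted p = 0.0046) that was lost without Gel/Laponite@IL-12 replicate 1 (0.43, adjusted p = 0.0606). For each of Ifit1, Ifit3, Isg15, Rsad2, Mx1, Oas2, Cxcl10 and Rnf213 the mean of Gel/IL-12 was the lowest of the gel groups and that of Gel/Laponite@IL-12 the highest. Among the 6 list genes that did not pass were Irf1 (0.09, adjusted p = 0.281), Irf9 (0.11, 0.0592), B2m (0.02, 0.811) and the immunoproteasome subunits Psmb8 (0.03, 0.94) and Psmb9 (-0.18, 0.588). B2m, the light chain of MHC class I, rose without IL-12 (0.14, adjusted p = 3.45e-06). Transcripts of the interferons Ifng and Ifnb1 were near the detection limit in the gel libraries, at no more than 0.11 and 0.40 CPM. Other interferon genes were not examined. The part of either in these changes was not tested.

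**Figure D3:**
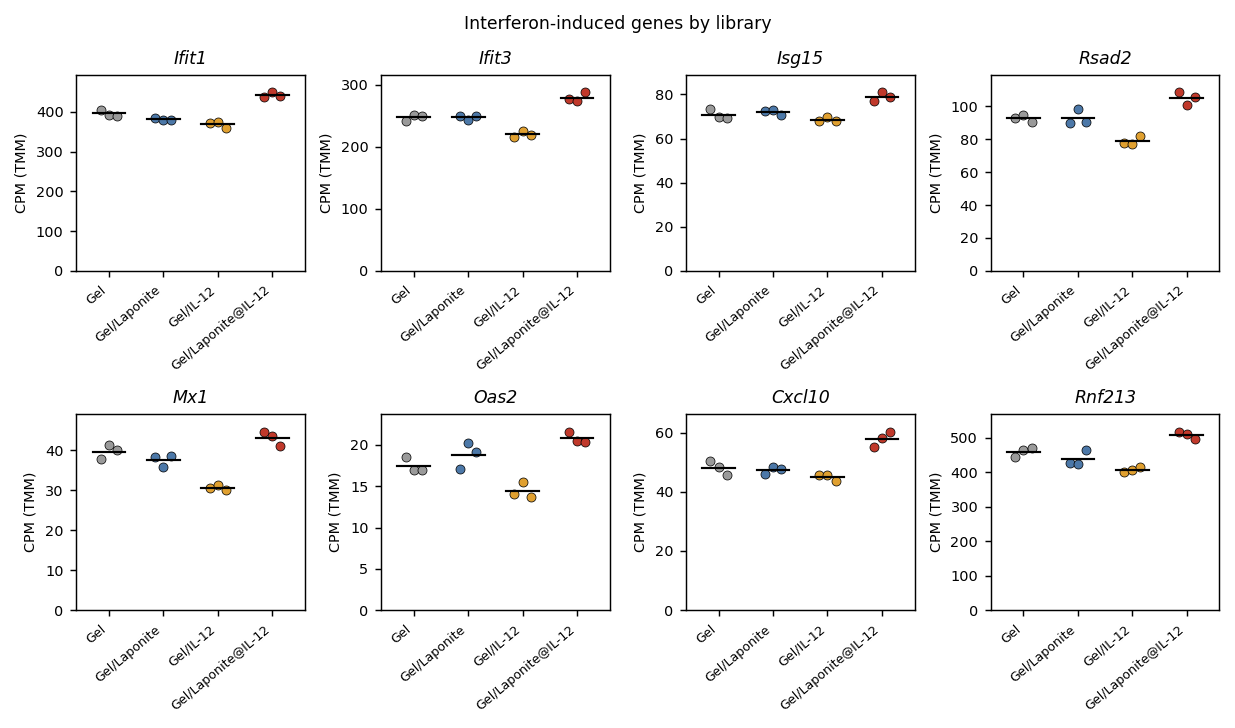
CPM of 8 interferon-induced genes in the 12 gel libraries, 1 point per library and a line at each group mean (n = 3), on linear axes from 0. In every panel the Gel/IL-12 mean is the lowest and the Gel/Laponite@IL-12 mean the highest.

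Genes of the hypoxia response and of glycolysis, which HIF-1 induces together at low oxygen, were raised by Laponite in the gel without IL-12 while with IL-12 their medians were near 0. Of the 29 tested hypoxia genes 17 rose without IL-12 (median 0.24), while with IL-12 2 fell, Lox and Bhlhe40, and the median was 0.02 (0.01 without Gel/IL-12 replicate 2, 0.001 without Gel/Laponite@IL-12 replicate 2 or 3). The call of Bhlhe40 was lost without Gel/Laponite@IL-12 replicate 2 (adjusted p 0.054). The difference was called in 13, in each case more negative with IL-12. Of the 24 glycolysis genes 17 rose without IL-12 (median 0.25) and 1 with it (median 0.03), and 14 differences were called. That 1 gene was Pgam1, phosphoglycerate mutase (0.08, adjusted p = 0.0226), whose call was lost with no filter on low counts and without Gel/IL-12 replicate 2 or 3 or Gel/Laponite@IL-12 replicate 2 or 3 (0.07 to 0.08, adjusted p 0.081 to 0.122). Without IL-12, 11 hypoxia and 8 glycolysis genes rose with IR-Con in the fit.

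Bnip3 (chr7:138890836-138909519), a mitochondrial receptor of mitophagy and a HIF-1 target, showed the lowest adjusted p of all genes for the difference. Gel held 109, 114 and 114 CPM and Gel/Laponite 173, 174 and 176 CPM, while Gel/IL-12 held 154, 149 and 152 CPM and Gel/Laponite@IL-12 143, 148 and 151 CPM. The Gel libraries were the lowest, the Gel/Laponite libraries the highest, and the groups with IL-12 lay between them and overlapped each other. The log2 effect of Laponite was 0.64 without IL-12 (adjusted p = 1.07e-28) and -0.04 with it (adjusted p = 0.623), a difference of -0.68 (SE 0.0474, adjusted p = 9.38e-21). Phosphoglycerate kinase (Pgk1) followed the same order, with 1336, 1325 and 1326 CPM for Gel, 1721, 1723 and 1700.1 CPM for Gel/Laponite, 1602, 1576 and 1570.5 CPM for Gel/IL-12 and 1501, 1577 and 1591 CPM for Gel/Laponite@IL-12, and its difference was -0.39 (adjusted p = 1.42e-20). Of the 50-base windows of Pgk1 46.1% were unique, and its count may hold reads of its copies. The effects with and without IL-12 were 0.04 and 0.33 for lactate dehydrogenase A (Ldha), 0.04 and 0.31 for triosephosphate isomerase (Tpi1), 0.02 and 0.43 for the stress-response gene Ndrg1, and 0.08 and 0.40 for Egln1, the prolyl hydroxylase that marks HIF-1 alpha for degradation, none of them called with IL-12. The differences of these genes were all called, from -0.41 to -0.28. Lox, a collagen cross-linking enzyme, fell with IL-12 by 0.10 on the log2 scale (adjusted p = 1.55e-06), from 6106, 6134 and 6063 CPM to 5709, 5749 and 5676 CPM.

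Ribosomal protein genes moved in opposite directions in the contrasts. This list was drawn up after its members had been seen among the DEGs, so its counts are a description only. Of the 81 tested genes 50 fell with IL-12 (median -0.13), 44 rose without it (median 0.11), and the difference was called in 59, in each more negative with IL-12. With IR-Con in the fit edgeR called 0 with IL-12 (16 at an unadjusted p under 0.05) at a median of -0.12. Their summed level was 38189 to 40114 CPM for Gel/Laponite@IL-12, 42219 to 43309 CPM for Gel/IL-12, 38919 to 39293 CPM for Gel and 41414 to 43190 CPM for Gel/Laponite, so Laponite libraries were below the others with IL-12 and above them without. Rps21, of the small subunit, fell from 184, 177 and 194 CPM to 152, 151 and 156 CPM with IL-12 (-0.27, adjusted p = 4.03e-10) and rose by 0.16 without it (adjusted p = 0.000537). The stalk protein gene Rplp1 fell from 973, 973 and 971 CPM to 847, 885 and 807 CPM (-0.20, adjusted p = 4.56e-10), and 40% of its 50-base windows were unique, as ribosomal protein genes have many processed copies.

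Of the 13 protein genes of mitochondrial DNA, subunits of the respiratory chain and ATP synthase, 7 fell with IL-12 (median -0.13) and 1 rose without it (mt-Nd6, 0.12), and 7 differences were called. None were called with IL-12 by edgeR with IR-Con in the fit (0 of 13, and 3 at an unadjusted p under 0.05). Their summed level was 27200 to 28270 CPM in Gel/Laponite@IL-12 and 29033 to 30051 CPM in Gel/IL-12, against 28161 to 28700 CPM for Gel and 28688 to 29183 CPM for Gel/Laponite. Cytochrome b (mt-Cytb) fell from 4034, 4018 and 3941 CPM to 3651, 3704 and 3612 CPM (-0.13, adjusted p = 2.44e-09), and mt-Nd5, of complex I, fell from 3373, 3424 and 3368 CPM to 3164, 3102 and 3011 CPM (-0.13, adjusted p = 1.15e-08). In both genes all Laponite libraries were the lower ones. mt-Nd4 changed by -0.21 (37.8% of its windows unique) and mt-Nd6, which lies on the opposite strand from the others, by -0.23.

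**Figure D4:**
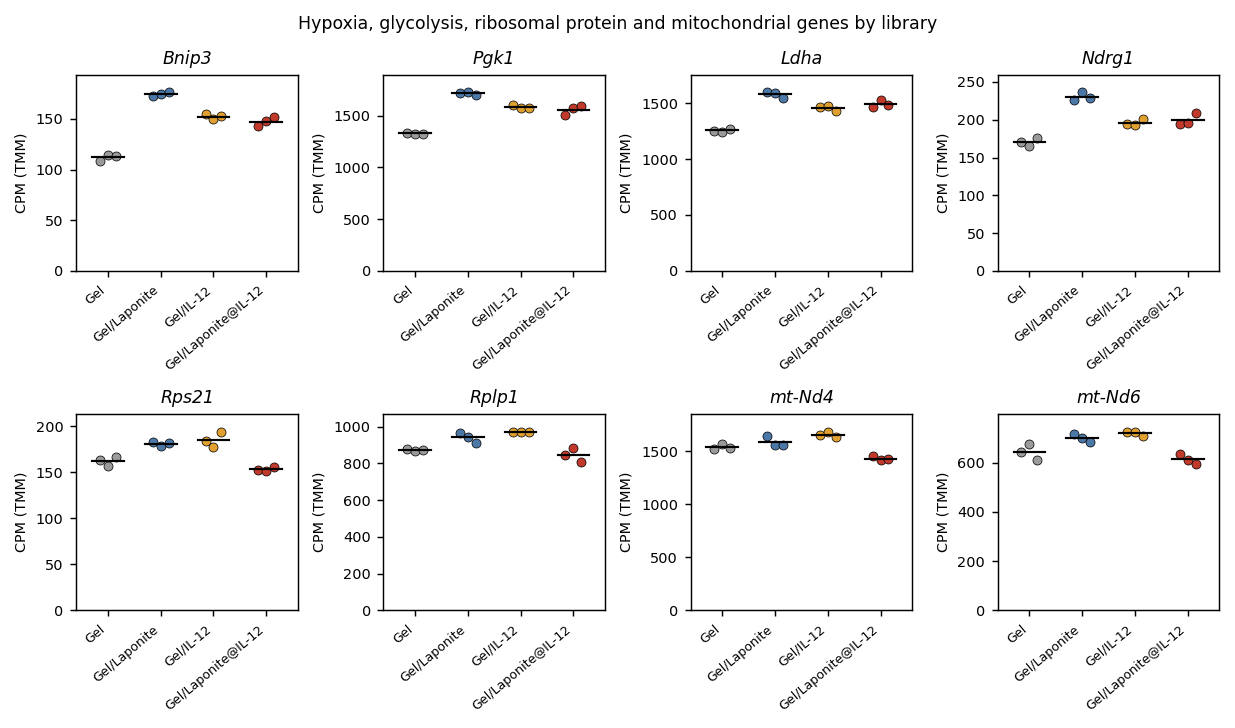
CPM of 4 hypoxia and glycolysis genes (Bnip3, Pgk1, Ldha, Ndrg1), 2 ribosomal protein genes (Rps21, Rplp1) and 2 mitochondrial genes (mt-Nd4, mt-Nd6) in the 12 gel libraries, 1 point per library and a line at each group mean (n = 3), on linear axes from 0. In the upper panels Gel is lowest, Gel/Laponite highest and the IL-12 groups lie between; in the lower panels Gel/Laponite@IL-12 lies below Gel/IL-12.

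Acute-phase and chemokine genes, which NF-kB induces in stroma, rose in part, with or without IL-12. Of the 22 acute-phase and NF-kB genes 5 rose, 1 fell and the median was 0.09, with the same counts and median without IL-12. With IL-12, 2.15% of all tested genes rose and 2.19% fell. In the fit with IR-Con 3 rose. Steap4 (chr5:7960457-7982213), a metalloreductase induced by inflammation, was read at 83.9, 81.8 and 81.2 CPM in Gel/IL-12 and at 128, 129.7 and 128 CPM in Gel/Laponite@IL-12 (log2 fold change 0.65, SE 0.0428, adjusted p = 1.41e-17). It had the highest fold of the DEGs over 10 CPM on average whose groups did not overlap, a condition of a rule that named it. Its effect was 0.37 without IL-12, and the difference of 0.27 was called (adjusted p = 0.00358) but not without Gel replicate 2 (0.19, adjusted p = 0.0544). Complement C3 rose from 1085, 1080.4 and 1062 CPM to 1339.8, 1339 and 1348 CPM (0.32, adjusted p = 8.21e-24), against 0.25 without IL-12. The copper carrier ceruloplasmin (Cp) rose by 0.18 (adjusted p = 8.07e-06), serum amyloid Saa3 by 0.40 (0.00671) and the NF-kB inhibitor Tnfaip3 by 0.16 (0.00591). The call of Saa3 was lost with the 6 libraries alone (adjusted p 0.12) and that of Tnfaip3 without Gel/IL-12 replicate 1 or without Gel/Laponite@IL-12 replicate 3 (adjusted p 0.0624 to 0.123). The pentraxin Ptx3 fell from 207, 218 and 205 CPM to 179, 182 and 172 CPM (-0.24, adjusted p = 6.22e-09).

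Of the 16 tested chemokines and inflammatory cytokines 7 rose and 2 fell (median 0.06), against 5 that rose without IL-12 (median 0.14, or 0.09 at a mean of at least 10 CPM). With IL-12 the median was -0.03 without Gel/IL-12 replicate 3, 0.01 without Gel/Laponite@IL-12 replicate 2 and 0.14 at a mean of at least 10 CPM, and both falls lost their calls without Gel/IL-12 replicate 1 or Gel/Laponite@IL-12 replicate 2, and 1 of them with DESeq2, without Gel/IL-12 replicate 2 or without Gel/Laponite@IL-12 replicate 1 or 3. In the fit of all 15 libraries edgeR called 0 (9 at an unadjusted p under 0.05). The monocyte attractant Ccl2 was read at 251, 273 and 252 CPM in Gel/IL-12 and 299.6, 315 and 289.9 CPM in Gel/Laponite@IL-12 (log2 fold change 0.22, adjusted p = 2.17e-08), without overlap. Besides Cxcl10, the others that rose were Ccl7 (0.20, adjusted p = 4.64e-07), Ccl8 (0.39, 0.0294), Cxcl5 (0.21, 0.0001), Il33 (0.14, 0.0203) and the neutrophil attractant Cxcl1 (0.18, 0.00187), which lost its call without Gel/IL-12 replicate 3 (0.14, adjusted p = 0.0607). The call of Ccl8 was lost with DESeq2 and without Gel/IL-12 replicate 1 or 2 or without Gel/Laponite@IL-12 replicate 2 (adjusted p 0.0859 to 0.329) and that of Il33 without Gel/IL-12 replicate 2 or without Gel/Laponite@IL-12 replicate 1 or 3 (adjusted p 0.0874 to 0.146). Ccl9 fell by 0.28 (adjusted p = 0.0328) and had a change of 0.25 without IL-12 that did not pass (adjusted p = 0.0628), its call with IL-12 being lost with DESeq2 and without Gel/IL-12 replicate 1 or 2 or without Gel/Laponite@IL-12 replicate 1, 2 or 3 (adjusted p 0.06 to 0.244). Cx3cl1 fell by 0.29 (0.00193), with its call lost without Gel/IL-12 replicate 1 (-0.23, adjusted p = 0.0583) or Gel/Laponite@IL-12 replicate 2 (-0.22, adjusted p = 0.0701). Ccl5, at 189, 189.9 and 180.1 CPM and 178, 181 and 188 CPM, did not pass (-0.03, adjusted p = 0.754), and Tnf was at most 0.19 CPM.

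Part of the genes of the TGF-beta response were lower. Of 20 TGF-beta targets and latency proteins 8 fell, 2 rose and the median was -0.11, against 3 that fell and 1 that rose without IL-12. The number that fell was 4 without Gel/IL-12 replicate 3 and 5 without Gel/IL-12 replicate 2 or without any of the 3 Gel/Laponite@IL-12 replicates in turn, and 1 with IR-Con in the fit. The receptor Tgfbr2 rose from 476, 470.1 and 482 CPM in Gel/IL-12 to 599.6, 583 and 599 CPM in Gel/Laponite@IL-12 (log2 fold change 0.32, adjusted p = 6.13e-20), with a like value of 0.29 without IL-12 (difference 0.03, SE 0.0332). Ctgf, a matricellular protein and TGF-beta and YAP target, fell from 194, 202 and 182 CPM to 157, 161 and 163 CPM (-0.27, adjusted p = 6.89e-10) and had 0.01 without IL-12, a difference that was called (-0.28, adjusted p = 8.07e-06). The latent TGF-beta binding protein Ltbp2 fell by 0.20 (adjusted p = 9.09e-10), smooth muscle actin Acta2 by 0.12 (2.57e-05) and fibronectin Fn1 by 0.11 (0.0354) on the log2 scale, the last with its call lost with limma voom and without Gel/IL-12 replicate 2 or 3 or without Gel/Laponite replicate 1 or without Gel/Laponite@IL-12 replicate 1 or 2 (adjusted p 0.0694 to 0.133). Calponin (Cnn1), an actin-binding protein of contractile cells, was read at 70.2, 68.4 and 67.7 CPM and 53.4, 56 and 50.8 CPM (-0.36, adjusted p = 1.29e-08), without overlap. Of the 24 genes of the actin cytoskeleton, SRF and YAP list, which holds Cnn1, 3 fell and 1 rose. Their median was -0.01 (-0.02 to 0.00 with 1 library left out). Of all tested genes 2.19% fell and 2.15% rose. The number that fell was 1 without Gel/IL-12 replicate 1 or Gel/Laponite@IL-12 replicate 3, and with IR-Con in the fit edgeR called 0 of the 24 (3 at an unadjusted p under 0.05).

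Some matrix genes changed, in both directions. Of 33 tested collagens and matrix proteins 4 rose and 4 fell, where 2.15% and 2.19% of all tested genes did. The number that rose was 1 with no filter and without Gel/IL-12 replicate 1 or 2 or Gel/Laponite@IL-12 replicate 3, and 2 without Gel/IL-12 replicate 3 or Gel/Laponite@IL-12 replicate 1. The number that fell was 2 without Gel/IL-12 replicate 2. Col5a3, a minor fibrillar collagen chain, rose from 44.1, 48 and 46.3 CPM in Gel/IL-12 to 61.1, 59.2 and 64.6 CPM in Gel/Laponite@IL-12 (log2 fold change 0.42, adjusted p = 1.71e-09). The abundant chains of collagen I were slightly lower, with 8349.9, 8559 and 8435 CPM and 7856, 7873 and 7915 CPM for Col1a2 (-0.10, adjusted p = 5.17e-08) and -0.10 for Col1a1 (adjusted p = 2.93e-05, but 0.0658 with limma voom). Col12a1 fell by 0.11 (0.000769), the proteoglycan fibromodulin (Fmod) by 0.46 (4.27e-06) and the hyaluronan synthase Has2 by 0.44 (0.000598), the last with its call lost without Gel/IL-12 replicate 2 (-0.31, adjusted p = 0.0715). Of 18 tested matrix proteases and inhibitors 4 rose and 2 fell. With IR-Con in the fit edgeR called 0 of the collagens and matrix proteins (3 at an unadjusted p under 0.05) and 0 of these 18 (7). Those that rose were the proteases Mmp2 (0.44, adjusted p = 0.00242), Mmp14 (0.11, 0.00647), Mmp16 (0.24, 6.61e-05) and Adamts5 (0.16, 0.000678), and those that fell the inhibitors Timp1 (-0.19, 7.38e-07) and Timp3 (-0.13, 0.000383). Timp1 was read at 309, 299 and 282 CPM in Gel/IL-12 and 254, 265 and 262 CPM with Laponite added, without overlap. The call of Mmp14 was lost without Gel/IL-12 replicate 1 (adjusted p 0.0565). That of Mmp2 was lost without Gel/Laponite@IL-12 replicate 2 (0.36, adjusted p = 0.0626).

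Some genes of the aryl hydrocarbon receptor, a sensor of planar aromatic compounds, fell with Laponite, and of these Cyp1a1 and Cyp1b1 also fell without IL-12. This list too was drawn up after the values had been seen. Cyp1a1, the classic inducible target, was read at 4.43, 4.57 and 4.96 CPM in Gel/IL-12 and 1.12, 1.02 and 1.36 CPM in Gel/Laponite@IL-12 (log2 fold change -1.99, SE 0.234, adjusted p = 2.22e-10), and its effect without IL-12 was -2.36 (difference 0.38, SE 0.365, adjusted p = 0.707). Its Laponite libraries did not overlap those without the clay, and the levels are low. Cyp1b1, the stromal member of the family, fell from 544, 539 and 539 CPM to 449, 451 and 447 CPM (-0.27, adjusted p = 2.66e-15), against -0.29 without IL-12. Of the 8 tested genes 5 fell with IL-12 (median -0.27) and 2 without it (median -0.15). Only Cyp1a1 fell with IR-Con in the fit. The others that fell were the receptor Ahr (-0.28, adjusted p = 6.61e-05), its repressor Tiparp (-0.24, 2.08e-05) and the quinone reductase Nqo1 (-0.28, 0.00236).

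The largest changes by size among all DEGs were of genes that averaged under 10 CPM. The 4 genes that rose at least 2-fold, chosen after their values were seen, were the esterase Ces1a (group means 6.09 CPM in Gel/IL-12 and 12.9 CPM in Gel/Laponite@IL-12, 1.08, adjusted p = 2.35e-11), and Gm8369 (1.12), Mfsd4b3 (1.55) and Ceacam16 (1.88), with group means of 1.85, 1.00 and 0.889 CPM in Gel/Laponite@IL-12. Of these low genes Gm8369 lost its call with no filter on low counts and without Gel/IL-12 replicate 1 or 2 or without Gel/Laponite@IL-12 replicate 2 or 3 (adjusted p 0.0534 to 0.328), Mfsd4b3 lost it without Gel/IL-12 replicate 1, 2 or 3 or without Gel/Laponite@IL-12 replicate 1, 2 or 3 (adjusted p 0.0662 to 0.0989) and Ceacam16 without Gel/IL-12 replicate 1 or 2 or without Gel/Laponite@IL-12 replicate 2 or 3 (adjusted p 0.106 to 0.184). Another 7 genes fell at least 2-fold. Among genes with a mean of at least 10 CPM, the myelin-related membrane protein Gpm6b rose from 25.5, 28 and 28.3 CPM to 42.2, 43.2 and 41.3 CPM (0.63, adjusted p = 4.1e-13). The chitinase-like protein Chil1 fell from 14.6, 14.7 and 12.2 CPM to 8.09, 7.47 and 8.97 CPM (-0.76, adjusted p = 7.12e-07), with -0.65 without IL-12. Neuritin (Nrn1) fell from 80.1, 71.7 and 78.7 CPM to 52.3, 51.7 and 53.9 CPM (-0.54, adjusted p = 2.53e-15), and its difference from the effect without IL-12 was -0.34 (adjusted p = 0.00038). Dlk1, a Notch-like inhibitor of adipocyte differentiation, was read at 256, 252 and 264 CPM and 190.5, 174 and 184 CPM (-0.49, adjusted p = 8.92e-23). Gpm6b, Chil1, Nrn1 and Dlk1 were named under a rule that required the groups not to overlap. The other genes that rose most were E130308A19Rik (0.44), Pdlim2 (0.42), Elmo1 (0.41), Hlf (0.41) and Zfp703 (0.40), and the others that fell most were Kazald1 (-0.51), the aminopeptidase Anpep (-0.46), the proprotein convertase Pcsk6 (-0.44) and Mcf2l (-0.43), the last with its call lost without Gel/IL-12 replicate 2 or 3 or Gel/Laponite@IL-12 replicate 2 (-0.39 to -0.31, adjusted p 0.0562 to 0.159).

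A minority of the hematopoietic niche factors, some of which the study measured by qPCR, changed. Of the cell cycle genes that the study measured by qPCR, Cdk6 alone passed. Of 24 tested niche factors 1 rose and 4 fell, where 2.15% and 2.19% of all tested genes did. The number that fell was 2 without Gel/Laponite@IL-12 replicate 1. With IR-Con in the fit edgeR called 0 (6 at an unadjusted p under 0.05). Fgf2, a mitogen of stromal cells, fell from 53.9, 48.4 and 52.4 CPM in Gel/IL-12 to 43.9, 38.7 and 38.7 CPM in Gel/Laponite@IL-12 (log2 fold change -0.35, adjusted p = 2.26e-06), with -0.30 without IL-12. For mRNA of hematopoietic growth factors, the paper reports higher levels with Gel/Laponite@IL-12 than with the other treatments. It labels a primer pair FGF without naming the family member. Fgf7 fell by 0.14 (0.000719) and Gas6 by 0.25 (0.00331), and Slit3 rose by 0.25 (0.00189). The call of Gas6 was lost without Gel/Laponite@IL-12 replicate 1 (adjusted p 0.107) and that of Slit3 without Gel/IL-12 replicate 3 or without Gel/Laponite@IL-12 replicate 3 (adjusted p 0.0512 to 0.0752). Pleiotrophin (Ptn) fell by 0.16 (adjusted p = 0.0374), a call lost with DESeq2 (0.0988) and without Gel/IL-12 replicate 1 or 2 or Gel/Laponite@IL-12 replicate 1 or 2 (adjusted p 0.0662 to 0.267). The chemokine Cxcl12, which retains hematopoietic stem cells in the marrow, was at 995, 991 and 971 CPM and 1034, 988 and 1026 CPM, and the groups overlapped (0.04, SE 0.0211, adjusted p = 0.304). Stem cell factor (Kitl) did not pass (0.11, SE 0.0453, adjusted p = 0.222). The cyclin-dependent kinase Cdk6 rose by 0.15 (adjusted p = 0.0167), a call lost with DESeq2 (0.0524) and without Gel/IL-12 replicate 2 or 3 or Gel/Laponite@IL-12 replicate 3 (adjusted p 0.0661 to 0.191). Cdk1 (-0.05, adjusted p = 0.681) and the replication clamp Pcna (-0.07, 0.281) did not pass. Neither did Chek1 (0.17, 0.34), Cdc6 (0.01, 0.975), Cdc25a (-0.08, 0.602), Cdc25c (0.06, 0.881) and Cdk2 (-0.06, 0.689). The paper reports these last genes and Cdk6 as increased by Gel/Laponite@IL-12.

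In edgeR, 0 of 34 DNA replication genes and 0 of 30 G2 and mitosis genes were called with IL-12. At an unadjusted p under 0.05 were 3 and 2 of them, against 2187 of all 15188 tested genes. DESeq2 and limma voom called 0 in both lists. The same 3 tools called 0 of 21 magnesium and ion transport genes, 15 integrins and 8 chondrogenic genes, where 0, 6 and 1 had an unadjusted p under 0.05, and 0 of the 5 macrophage and 8 endothelial markers tested, where 0 and 0 had one. Of the 16 mesenchymal markers Pdgfra (0.16, adjusted p = 2.14e-07) and Nes (0.19, 0.0013) rose and Ly6a fell (-0.13, 0.000612). For the small counts that follow, 2.15% of all tested genes rose and 2.19% fell. The IL-12 receptor and JAK/STAT list had 2 lower of 17 tested, Jak1 (-0.09, 0.0359) and Socs2 (-0.21, 0.048). The first call was lost with DESeq2 or no filter on low counts and without Gel replicate 2 or without Gel/IL-12 replicate 1, 2 or 3 or without Gel/Laponite@IL-12 replicate 1 or 2 (adjusted p 0.0514 to 0.227), and the second with the 6 libraries alone, RLE size factors, DESeq2, limma voom or the replicate block and without Gel replicate 1, 2 or 3 or without Gel/IL-12 replicate 1 or 2 or without Gel/Laponite@IL-12 replicate 1, 2 or 3 (adjusted p 0.0511 to 0.396). The PI3K/AKT list had 1 higher of 25, Pdpk1 (0.14, 0.00815). The count was 0 without Gel/IL-12 replicate 2 or with IR-Con in the fit (3 at an unadjusted p under 0.05 by edgeR in the latter), 2 with RLE size factors, with the 6 libraries alone or without any of 4 other libraries in turn, and 3 with a mean of at least 10 CPM or without Gel/IL-12 replicate 3. The call of Pdpk1 was lost without Gel/IL-12 replicate 2 or without Gel/Laponite@IL-12 replicate 2 (adjusted p 0.0502 to 0.0756). Of 18 Toll-like receptor and inflammasome genes Tlr3 rose (0.20, 0.0448), a call lost with DESeq2 or limma voom and without Gel replicate 1 or without Gel/IL-12 replicate 1 or 3 or without Gel/Laponite@IL-12 replicate 1, 2 or 3 (adjusted p 0.0504 to 0.379). In the fit of all 15 libraries edgeR called 0 genes of this list and 0 of the JAK/STAT list (1 and 2 at an unadjusted p under 0.05). Of the immediate early genes, the phosphatase Dusp1 rose from 113, 114 and 114 CPM to 133, 136 and 139 CPM (0.26, adjusted p = 2.28e-08), while Ier3 (-0.18), Phlda1 (-0.39) and Nr4a1 (-0.18) fell, the last with its call lost with DESeq2 and without Gel/IL-12 replicate 1, 2 or 3 or without Gel/Laponite@IL-12 replicate 1 or 2 (adjusted p 0.0632 to 0.156). The sterol regulator Insig1 fell by 0.19 (0.00105), the p53 target Plk2 rose by 0.24 (2.49e-09) and the pluripotency factor Klf4 rose by 0.24 (0.000442). In each of the lists not yet named (metal and oxidative stress, endocytosis, unfolded protein response, sterol synthesis, adipogenic, Wnt) at most 3 genes passed in either direction.

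**Figure D5:**
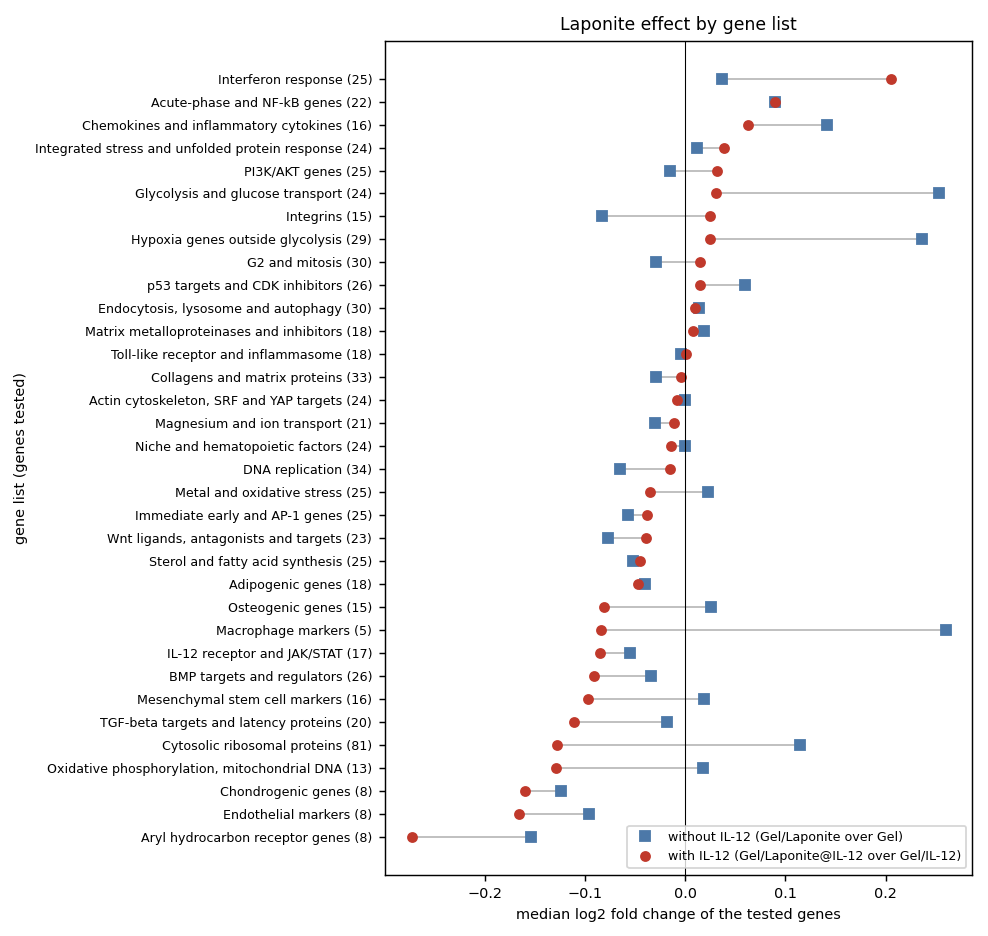
Median log2 fold change by Laponite over the tested genes of each list (number tested in parentheses) with IL-12 (red circles, Gel/Laponite@IL-12 over Gel/IL-12) and without (blue squares, Gel/Laponite over Gel), ordered by the value with IL-12; lists with at least 5 tested genes are drawn. The interferon list has the highest median with IL-12 (0.21) and the aryl hydrocarbon receptor list the lowest (-0.27), and the glycolysis and hypoxia lists lie further right without IL-12 (0.25 and 0.24). The aryl hydrocarbon receptor and ribosomal protein lists were drawn up after the values had been seen, so their places are a description only.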

How the data were processed

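The RNA-seq libraries came from mouse BM-MSCs after irradiation, and the authors deposited whole-number counts per gene and library in 1 table, without normalization. The genome build was mm10, and the aligner, the counting tool and the use of strand are not given in the sources used here, so reads of overlapping antisense genes cannot be told apart. The authors' FPKM, group means, fold changes and p-values in the table were not used. Genes were kept with edgeR filterByExpr (minimum count 10, minimum total 15), library sizes were scaled by TMM, and a mean per group was fitted over the 12 gel libraries (edgeR 4.0.16, R 4.3.3, quasi-likelihood, 8 residual degrees of freedom). Contrasts were Laponite with IL-12, Laponite without IL-12 and their difference, with Benjamini-Hochberg adjustment over all tested genes and a threshold of 0.05. Log2 fold changes, SE and adjusted p come from this fit. CPM values are given per library.

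The members and gene lists were chosen with earlier results of these data known, and 2 lists (ribosomal proteins, aryl hydrocarbon receptor) after the values had been seen. Named genes were the 15 highest and 15 lowest changes among DEGs that averaged 10 CPM or more and whose groups did not overlap, up to 5 members of each list by adjusted p, the genes the study measured by qPCR, and the 10 lowest adjusted p of the difference. Other list members are named to account for counts, and some named or counted genes are not reported here. Alternatives were limma voom (3.58.1), DESeq2 (1.42.0), RLE size factors, other filters, other sets of libraries, each library left out and the replicate block. The steps were tested on simulated data. Promoters are from RefSeq, and the share of unique 50-base windows was computed over the GENCODE M21 transcripts.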

Additional observations from a re-analysis of the deposited data

Results flagged for a closer look

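For the genes below the effect of Laponite differed between the gel with IL-12 and the gel without it, as tested by the interaction term of the edgeR fit (adjusted p under 0.05 over all tested genes). Each value is the log2 effect with IL-12 minus the log2 effect without. It was -0.44 for Id1, -0.52 for Id2 and -0.26 for Id3, genes that fell in both settings. Among interferon-induced genes it was 0.32 for Ifit1, 0.22 for Ifit2, 0.34 for Ifit3, 0.37 for Ifit3b, 0.41 for Rsad2, 0.57 for Mx1, 0.42 for Oas2, 0.39 for Cxcl10, 0.38 for Rnf213 and 0.52 for F830016B08Rik, and it was -0.12 for B2m. Among inflammatory, stromal and other genes with a more positive effect with IL-12 it was 0.27 for Steap4, 0.44 for Zfp703, 0.20 for Dusp1 and 0.15 for Pdgfra.

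For genes of hypoxia and glycolysis the difference was -0.68 for Bnip3, -0.39 for Pgk1, -0.29 for Ldha, -0.28 for Tpi1, -0.41 for Ndrg1, -0.20 for Pgam1, -0.32 for Egln1 and -0.11 for Lox. It was -0.43 for Rps21 and -0.31 for Rplp1 among ribosomal protein genes, and -0.26 for mt-Nd4, -0.18 for mt-Nd5, -0.35 for mt-Nd6 and -0.17 for mt-Cytb among mitochondrial genes. For the remaining genes it was -0.28 for Ctgf, -0.07 for Col1a2, -0.16 for Timp1, -0.34 for Nrn1, -0.14 for Dlk1 and -0.16 for Pcna. Some of these calls depended on the setting, and all were lost with IR-Con in the fit (all 15 libraries). With 1 library left out, the call of Oas2 held in 7 of 12 fits and that of F830016B08Rik in 11 of 12. The call of Dlk1 was lost with RLE size factors, DESeq2, limma voom and no filter (adjusted p 0.052 to 0.0571) and without any of 10 libraries in turn (0.0526 to 0.248), that of Col1a2 with no filter (0.125) and that of Pcna without any of 8 libraries in turn (0.0526 to 0.175). The calls of B2m, Col1a2 and Timp1 were lost without any of 4, 4 and 3 libraries in turn, and those of Dusp1 and Steap4 without Gel replicate 2.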

How the results depend on the processing

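With the IR-Con libraries in the fit (all 15), Laponite with IL-12 gave 47 DEGs, Laponite without IL-12 gave 51 and the difference gave 0 by edgeR (631 genes at an unadjusted p under 0.05), against 659, 819 and 562 from the 12 gel libraries. The coefficient of variation was 16.9% in IR-Con and 3.73% over the gel libraries. The number of DEGs with IL-12 was 494 with DESeq2, 633 with limma voom, 659 with RLE size factors, 597 with no filter, 702 at a mean of at least 10 CPM and 669 from the 6 libraries of the comparison alone. Without any 1 library it was 449 to 686, for Laponite without IL-12 522 to 872 (522 without Gel replicate 3) and for the difference 375 to 666. Samples with the same replicate number did not deviate together within the contrasts (r from -0.17 to 0.03). These values come from 3 libraries per group centred on the group mean, and a shared batch or culture was not tested. With the replicate block the counts were 659, 812 and 561. For 97 named genes under these settings, 708 of 775 values with IL-12 kept direction and side of the threshold and the other 67 kept direction only, 63 of them with all 15 libraries. With 1 library left out 1143 of 1164 kept their side of the threshold, and the other 21 lost the call and kept direction. None of the 83 genes called with IL-12 or the 38 called for the difference changed sign, while 2 of 14 that did not pass with IL-12 (Pgk1 and Ndrg1) and 13 of 59 for the difference did. Of 678 list medians 53 moved by more than the spread between libraries, and 10 of 34 lists with IL-12 and 8 of 34 without, with medians of at most 0.08 and 0.03 in size, changed sign in a setting. At 15147272 to 17818982 counts per library, genes under 1 CPM rest on few reads.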
